A study of Homo sapiens with 6 samples.

Results

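The BTG and TOB antiproliferative family was examined by RNA-seq in HCT116, an established line of human colorectal cancer cells. The members BTG1, BTG2, BTG3, TOB1 and TOB2 were matched by symbol, and all 5 were found among the 26255 gene symbols deposited for each library. The 6 libraries formed 3 groups of 2, namely parent cells, cells given the siRNA siLINC01534-1 and cells given the siRNA siLINC01534-2, both siRNAs being directed at the long noncoding RNA LINC01534. No transfection is described for the parent cells, and libraries of a negative control siRNA were not analysed here, so transfection and loss of LINC01534 cannot be told apart. The time between transfection and RNA extraction is not given in the sources used here. In these libraries BTG3 was the only member lower than parent with each siRNA, though TOB1 fell further with siLINC01534-1. The genes were chosen by their FPKM in these same libraries. The values of the members are thus given as a description without p-values, and nothing is read from a test of them. All 5 passed the filter on low values, a mean FPKM of 1 over the 6 libraries.

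BTG and TOB proteins share a conserved N-terminal domain that binds CNOT7 and CNOT8, which are deadenylase subunits of the CCR4-NOT complex. Through this contact, and through contact with the cytoplasmic poly(A)-binding protein, they promote shortening of poly(A) tails and decay of mRNAs. Their overexpression slows the cell cycle in many cell types, BTG2 is known to be induced by DNA damage, and BTG3 has been described to bind the transcription factor E2F1 and the checkpoint kinase CHK1.

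An siRNA can also act on other mRNAs through its seed, bases 2 to 8 of a strand, so the 3′ UTRs of the members were searched for the letters that pair with each seed of the siRNA sequences given in the methods. The antisense seed of siLINC01534-1 pairs with GAATAAA, letters that overlap the polyadenylation signal AATAAA. BTG3 held 1 match in a 3′ UTR of 440 nt, BTG1 held 2 matches in 3802 nt, and no match was found in BTG2 (2164 nt), TOB1 (757 nt) or TOB2 (2817 nt). Of the 10542 tested genes with an annotated 3′ UTR, 26.4% held this match. The 3 sites are shown because their presence can be set against the levels below. Each is given with its match in capitals on the strand of the transcript, from the GENCODE annotation on GRCh37 (hg19).
BTG3 site: gaaaaaggtaGAATAAAccttactaca
BTG1 first site: ctacacccagGAATAAAttattctgat
BTG1 second site: tccaagatagGAATAAAaaaatgtagt
The BTG3 site lies at chr21:18966352-18966378 on the minus strand, with the match starting at base 43 of the 3′ UTR. The BTG1 sites lie at chr12:92536000-92536026 and chr12:92534058-92534084, also on the minus strand, and their matches start at bases 1840 and 3782 of the 3′ UTR. The antisense seed match of siLINC01534-2 (TTCGAGT, in 1.88% of tested genes) was found in none of the 5 3′ UTRs. The same held for the sense seed matches of siLINC01534-1 (CACTCGA, 1.64%) and of siLINC01534-2 (CCTCGTT, 2.95%). These searches covered the canonical transcript of each gene, on 1 strand.

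BTG3 maps to chromosome 21 of GRCh37 (18965971 to 18985263, minus strand) and has 5 exons in its canonical transcript. BTG1 maps to chromosome 12 (92534054 to 92539622, minus strand), BTG2 to chromosome 1 (203274619 to 203278730, plus strand), TOB1 to chromosome 17 (48939584 to 48945339, minus strand) and TOB2 to chromosome 22 (41829498 to 41842805, minus strand), and each of these 4 has 2 exons. The coding lengths were 516 nt for BTG1, 477 nt for BTG2, 759 nt for BTG3, 1038 nt for TOB1 and 1035 nt for TOB2. The 3′ UTRs of TOB1, BTG3 and BTG1 consisted of A and T to 73.7%, 71.1% and 65.5%. These 3 lay above the median of 57.3% over tested genes, while those of BTG2 and TOB2 had 53.2% and 51.8%. An AU-rich element core, TATTTAT, was present 2 times in the BTG3 3′ UTR, 1 time each in BTG1, BTG2 and TOB2, and not in TOB1, against 35.7% of tested genes with at least 1.

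The unit was FPKM, a read number scaled to transcript length and to library size, and no read counts were used. The steps between low values put the depth at about 8690000 to 10400000 reads per library. Of 4147 low genes, 48.6% had values at whole steps. The smallest read numbers among the members were then about 130 and 140, for BTG1 in the parent libraries. These numbers take the canonical transcript of 4629 nt as the length of BTG1, and would be smaller if the FPKM rest on a shorter one. LINC01534 itself was listed at 0.285 and 0.571 FPKM in the parent libraries, at 0 and 0.283 in the siLINC01534-1 libraries, and at 0.660 and 0.551 in the siLINC01534-2 libraries. Its mean was 0.428 FPKM in parent, 0.142 with siLINC01534-1 and 0.606 with siLINC01534-2, so it was not lower than parent with siLINC01534-2. Values this low rest on few reads. LINC01534 did not pass the filter and was not tested, so its loss cannot be judged from these libraries. The groups are named by their labels throughout. Of 6 epithelial marker genes, 5 were expressed in each group and VIL1 was at or near 0, while of 7 markers of immune, endothelial and stromal cells 6 stayed under a mean FPKM of 1, the exception being COL1A1. The summed FPKM of the epithelial markers was 3450 to 3520 in the parent libraries, 2920 in both siLINC01534-1 libraries and 3330 to 3510 in those of siLINC01534-2. That of the other 7 markers was 3.06 to 3.09, 5.17 to 5.82 and 3.83 to 4.27 in the same order, and CD3E, DCN and LUM were listed at 0 in every library. The part of these differences in the results was not tested.

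BTG3, the member with the highest level in parent cells, was lower with each siRNA and lowest with siLINC01534-2. The parent libraries had 45.7 and 47.9 FPKM, the siLINC01534-1 libraries 27.3 and 25.3, and the siLINC01534-2 libraries 14.7 and 15.0. The 3 groups did not overlap, and each siRNA group lay below both parent libraries. Groups of 2 libraries can also lie apart at a small difference. CNOT1, for example, did not overlap between siLINC01534-1 and parent at a log2 difference of -0.03. The share of all tested genes without overlap was not computed, so nothing is read from a lack of overlap, here or below. From a parent mean of 46.8 ± 1.53 FPKM (SD, n = 2), the level of BTG3 was down to 26.3 ± 1.42 FPKM (SD, n = 2) under siLINC01534-1 and 14.9 ± 0.172 FPKM (SD, n = 2) under siLINC01534-2. These means were 0.563 and 0.317 of the parent mean, a difference in log2(FPKM + 1) of -0.81 (SE 0.052) and -1.59 (SE 0.052). Among the 12203 genes that passed the filter, BTG3 had the 67th lowest difference with siLINC01534-2 and the 451st lowest with siLINC01534-1. The level with siLINC01534-1 was 1.77 times that with siLINC01534-2. BTG3 carries a seed match of siLINC01534-1 and none of siLINC01534-2, and its level was the lower one with siLINC01534-2. The part of the seed match in these levels was not tested. In bulk libraries, a lower share of cells that express a gene and less RNA per cell cannot be told apart.

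**Figure D1:**
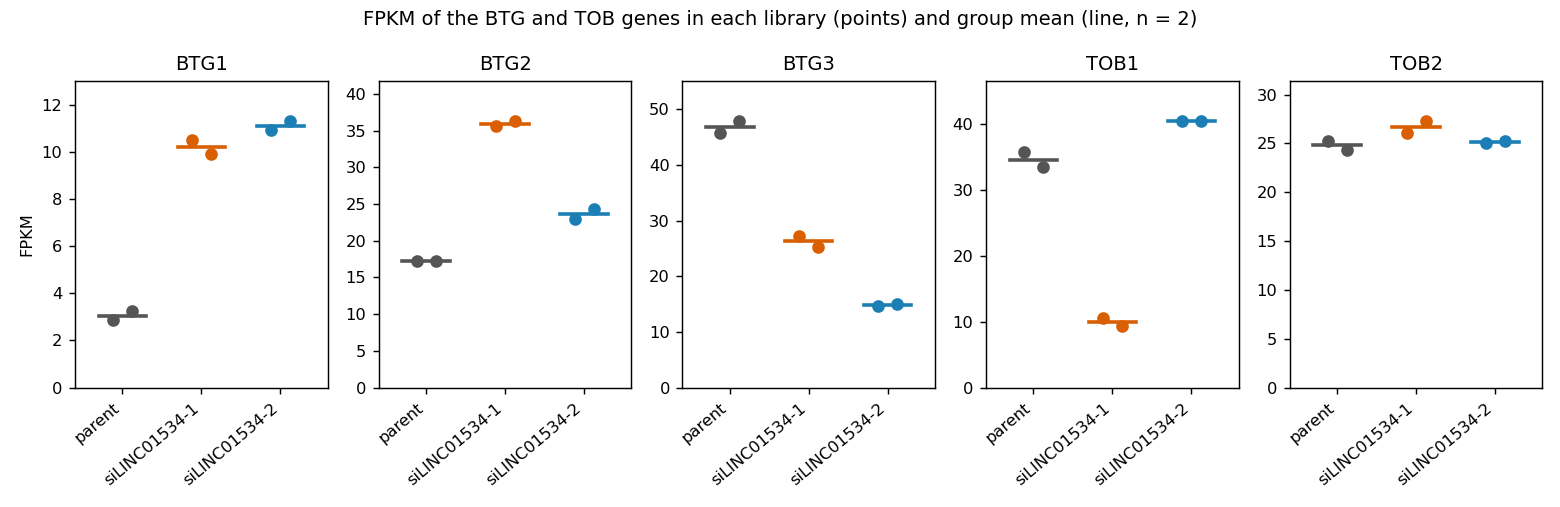
FPKM of BTG1, BTG2, BTG3, TOB1 and TOB2 in the 6 libraries, with 1 panel per gene, points for libraries, lines for group means (n = 2) and y axes that start at 0 and differ between panels. BTG3 descends from 46.8 in parent to 26.3 and 14.9, BTG1 ascends with both siRNAs, and TOB1 is low with siLINC01534-1 alone.

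BTG1 and BTG2, the closest relatives of each other in the family, were both higher with each siRNA, in contrast to BTG3. BTG1 stood at 2.85 and 3.26 FPKM in the parent libraries, at 10.5 and 9.89 in the siLINC01534-1 libraries, and at 10.9 and 11.3 in the siLINC01534-2 libraries. All 4 siLINC01534 libraries lay above both parent libraries, and the siRNA groups lay close to each other, with 0.923 as the ratio of siLINC01534-1 to siLINC01534-2. BTG1 was 3.35 times the parent level with siLINC01534-1 and 3.63 times with siLINC01534-2, which made it the 98th and the 62nd highest of the 12203 differences. For comparison, 2.65% of all tested genes were more than 2-fold higher with siLINC01534-1 and 1.59% with siLINC01534-2. The pseudocount of 1 understates the change of this gene, which was 1.47 (SE 0.074) and 1.58 (SE 0.074) on the log2(FPKM + 1) scale. BTG1 holds both of the GAATAAA matches shown above that are not in BTG3, and their part in its level was not tested.

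For BTG2, both parent libraries gave 17.3 FPKM, the siLINC01534-1 libraries 35.6 and 36.3, and the siLINC01534-2 libraries 22.9 and 24.3. Its groups did not overlap either, but their order differed from that of BTG1, as the siLINC01534-1 libraries were the highest. BTG2 reached 2.08 times the parent mean under siLINC01534-1 and 1.37 times under siLINC01534-2, and the log2 differences were 1.02 (SE 0.044) and 0.43 (SE 0.044). BTG2 with siLINC01534-1 was 1.52 times its level with siLINC01534-2.

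The TOB genes encode the longer members of the family, whose C-terminal part binds the poly(A)-binding protein. TOB1 was at 35.8 and 33.5 FPKM in the parent libraries, at 10.5 and 9.37 in those of siLINC01534-1, and at 40.5 in both of siLINC01534-2. It was thus low with siLINC01534-1 alone, while both siLINC01534-2 libraries lay above the parent libraries. Its mean was 0.287 of the parent mean under siLINC01534-1 and 1.17 times it under siLINC01534-2, with log2 differences of -1.70 (SE 0.065) and 0.22 (SE 0.065). TOB1 had the 71st lowest difference of all tested genes with siLINC01534-1. Between the siRNAs it differed by a ratio of 0.245, or -1.93 (SE 0.065) on the log2 scale, the widest gap of the 5 members.

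TOB2 varied least. Its level was 25.3 and 24.3 FPKM in the parent libraries, 26.1 and 27.3 in those of siLINC01534-1, and 25.0 and 25.3 in those of siLINC01534-2. The siLINC01534-2 libraries overlapped with parent and the siLINC01534-1 libraries lay just above it. The log2 differences were 0.11 (SE 0.045) and 0.02 (SE 0.045).

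**Figure D2:**
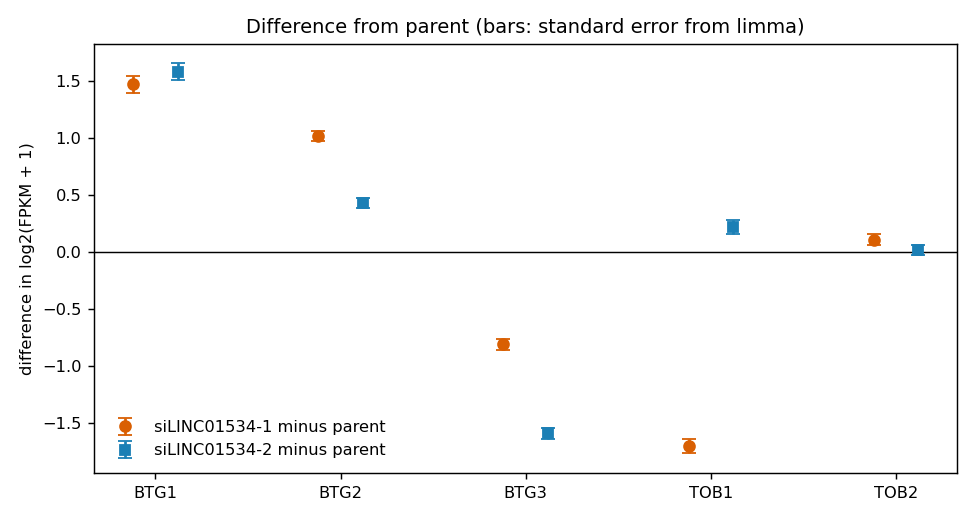
Difference from parent in log2(FPKM + 1) for each member, with circles for siLINC01534-1, squares for siLINC01534-2 and bars for the standard error from limma. BTG3 lies below 0 for both siRNAs (-0.81 and -1.59), BTG1 and BTG2 lie above 0 for both, and TOB1 lies at -1.70 and 0.22.

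BTG4, the remaining member of the family in humans and known mainly from oocytes, was listed at 0 FPKM in all 6 libraries. Processed pseudogenes are annotated for BTG1, BTG3 and TOB2. The TOB2 pseudogene TOB2P1 was listed at 0.133 to 0.406 FPKM, and the symbols BTG1P1 and BTG3P1 were looked for and not listed. How reads shared between a gene and its copy were assigned is not given in the sources used here. TOB1-AS1, which overlaps TOB1 on the other strand, was listed at 0.244 to 0.744 FPKM. The strand setting of the quantification is not given either.

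The order of the family changed with each siRNA. FPKM is a value per transcript length, so the levels of different genes can be set side by side. In parent cells the order by mean FPKM was BTG3 (46.8), TOB1 (34.6), TOB2 (24.8), BTG2 (17.3) and BTG1 (3.05), and no neighbours in this order overlapped. With siLINC01534-1 it was BTG2 (36.0), TOB2 (26.7), BTG3 (26.3), BTG1 (10.2) and TOB1 (9.94). In this group the libraries overlapped between TOB2 and BTG3 and between BTG1 and TOB1, so these neighbours do not differ beyond their spread. With siLINC01534-2 the order was TOB1 (40.5), TOB2 (25.2), BTG2 (23.6), BTG3 (14.9) and BTG1 (11.1), again without overlap. BTG3 thus led the order in parent, lay behind BTG2 and overlapped with TOB2 under siLINC01534-1, and was above BTG1 alone under siLINC01534-2.

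The summed FPKM of the 5 genes was 127 ± 0.601 FPKM (SD, n = 2) in parent, 109 ± 1.42 FPKM (SD, n = 2) with siLINC01534-1 and 115 ± 1.65 FPKM (SD, n = 2) with siLINC01534-2. BTG3 made up 36.0% and 38.0% of the sum in the parent libraries, 24.8% and 23.4% with siLINC01534-1, and 12.9% in both siLINC01534-2 libraries. The share of BTG1 was 2.24% and 2.58% in parent and 9.14% to 9.69% in the 4 siLINC01534 libraries. BTG2 held the largest share with siLINC01534-1, at 32.3% and 33.5%, and TOB1 with siLINC01534-2, at 35.6% and 34.8%.

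**Figure D3:**
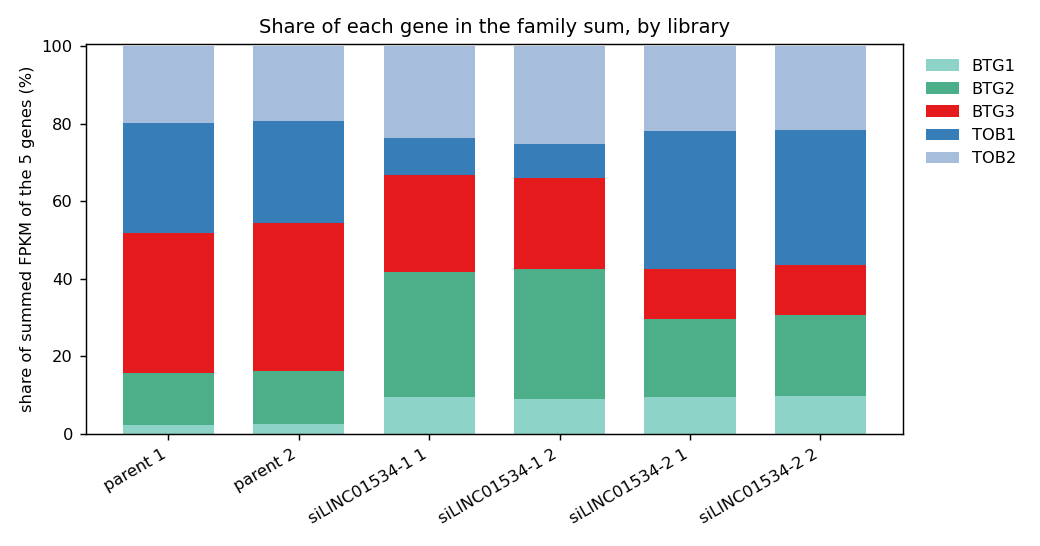
Share of each gene in the summed FPKM of the 5 genes, as stacked bars from 0 to 100% for each of the 6 libraries. The share of BTG3 narrows from 36.0% and 38.0% in parent to 12.9% with siLINC01534-2, and that of TOB1 is narrow with siLINC01534-1 alone.

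BTG3 was set against the mean of BTG1, BTG2, TOB1 and TOB2 in each library. Its log2(FPKM + 1) exceeded that mean by 1.53 and 1.60 in parent and by 0.57 and 0.50 with siLINC01534-1, and it was lower than the mean in the siLINC01534-2 libraries, at -0.58 and -0.60. That mean joins relatives that moved in opposite directions with siLINC01534-1, such as BTG1 (1.47) and TOB1 (-1.70). At the adjusted p threshold of 0.05 used for all genes, 2 members were past it on the higher side and 2 on the lower side under siLINC01534-1, where 46.3% of all 12203 tested genes were past it (21.8% higher, 24.5% lower). Under siLINC01534-2, 2 were higher and 1 was lower, where 22.8% of all genes were past it (11.1% higher, 11.8% lower). Between the siRNAs, 2 were higher and 1 lower with siLINC01534-1, against 41.8% of all genes (19.5% higher, 22.3% lower). A mean FPKM more than 2-fold below parent was seen for TOB1 under siLINC01534-1 and for BTG3 under siLINC01534-2, where 3.2% and 1.02% of all genes were that low. Between the siRNAs, TOB1 was more than 2-fold lower with siLINC01534-1 (2.94% of all genes) and no member was more than 2-fold higher (1.76%). Nothing is read from these counts, as these comparisons chose the members, and the comparisons with parent share the parent libraries.

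The promoters were described from the RefSeq promoter table (GRCh38.p14), which covers 250 bases before to 50 bases after a start site. BTG1 and BTG2 each held 1 CCAAT box (CCAAT, both strands), shown here with the match in capitals.
BTG1 promoter: cgatattcggATTGGctggagtcgg
BTG2 promoter: ctggccgcgaCCAATgagcgccgcc
The match starts at position -87 from the start site in BTG1 (window chr12:92145797-92146096, minus strand) and at -76 in BTG2 (window chr1:203305269-203305568, plus strand). BTG3 and TOB2 held none, and of the 2 listed TOB1 promoters 1 held it, against 34.6% of all 35116 promoters of this length. A TATA box (TATAAA) was found in BTG1 alone, at position -33, against 11.5% of all promoters. The cAMP response element TGACGTCA (1.85%) and the amino acid response element TGATGNAA (3.62%), the letters bound by ATF and CEBP factors, were found in no promoter of the 5 genes. GC boxes (GGGCGG, 45.0%) occurred in a promoter of each of the 5 genes. The part of these motifs in the levels of the members was not tested.

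The deadenylases with which the family acts were described next, from a list of 15 genes of the CCR4-NOT complex, the PAN2-PAN3 complex and PARN, all of which were tested. These genes are not members, and limma with Benjamini-Hochberg adjustment over all 12203 genes was used to test them. CNOT7 and CNOT8, which encode the subunits that BTG and TOB proteins bind, had differences of at most 0.25. CNOT7, at 75.4 to 82.2 FPKM in the 6 libraries, was not past the threshold with siLINC01534-1 (log2 difference 0.01, adjusted p = 0.86) or siLINC01534-2 (-0.04, adjusted p = 0.62). CNOT8 rose by 0.20 (SE 0.050, adjusted p = 0.024) and by 0.25 (SE 0.050, adjusted p = 0.022). The scaffold gene CNOT1 was not past the threshold either, at -0.03 (adjusted p = 0.66) and -0.12 (adjusted p = 0.10). Of the 15 genes, 3 rose and 5 fell under siLINC01534-1, and 2 rose and 2 fell under siLINC01534-2. Over all tested genes, 46.3% were past the threshold under siLINC01534-1 (21.8% higher, 24.5% lower). Under siLINC01534-2 this share was 22.8% (11.1% higher, 11.8% lower), so such calls were common. The median log2 difference of the 15 genes was -0.02 and -0.06, against medians near 0 over all tested genes (0.00031 and 0.0018).

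Several of these genes fell with siLINC01534-1 and were not past the threshold with siLINC01534-2. CNOT2, a core subunit, was at 22.3 and 21.7 FPKM in the parent libraries, at 15.3 and 14.7 in those of siLINC01534-1 (log2 difference -0.52, SE 0.047, limma adjusted p = 7.2e-04), and at 21.1 and 20.3 in those of siLINC01534-2. CNOT10, an accessory subunit, was at 20.1 FPKM in both parent libraries, at 14.3 and 13.6 in those of siLINC01534-1 (-0.50, SE 0.050, adjusted p = 0.0010), and at 21.4 and 20.2 in those of siLINC01534-2. The deadenylase CNOT6 fell by 0.65 on the log2 scale (adjusted p = 0.0029), PARN by 0.43 (adjusted p = 0.0048) and PAN3 by 0.30 (adjusted p = 0.016). For CNOT2, CNOT6, CNOT10, PAN3 and PARN the difference between the siRNAs was itself past the threshold, with limma adjusted p from 9.7e-04 to 0.026. PAN2, the catalytic partner of PAN3, rose with siLINC01534-1 instead (0.58, SE 0.10, adjusted p = 0.0072), and was at -0.33 with siLINC01534-2 (adjusted p = 0.074).

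The scaffold-bound subunits CNOT3 and CNOT9 (listed under its older symbol RQCD1) fell with siLINC01534-2, by 0.28 (adjusted p = 0.020) and 0.35 (adjusted p = 0.0094), and were at -0.02 and -0.04 with siLINC01534-1. TNKS1BP1, which associates with CCR4-NOT, rose with both, by 0.43 (SE 0.043, adjusted p = 0.0010) and 0.39 (SE 0.043, adjusted p = 0.0047). Calls of small differences depended on single libraries. The calls of CNOT8 were lost without any of the 4 libraries of the siLINC01534-1 comparison (log2 difference 0.18 to 0.21) and without any library but siLINC01534-2 replicate 1 in the siLINC01534-2 comparison (0.20 to 0.26). That of CNOT3 was lost without any of the 4 libraries compared (-0.33 to -0.23), that of CNOT9 without parent replicate 2 or siLINC01534-2 replicate 2 (-0.32 and -0.31), and that of PAN3 without either parent library or siLINC01534-1 replicate 2 (-0.30 to -0.22).

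**Figure D4:**
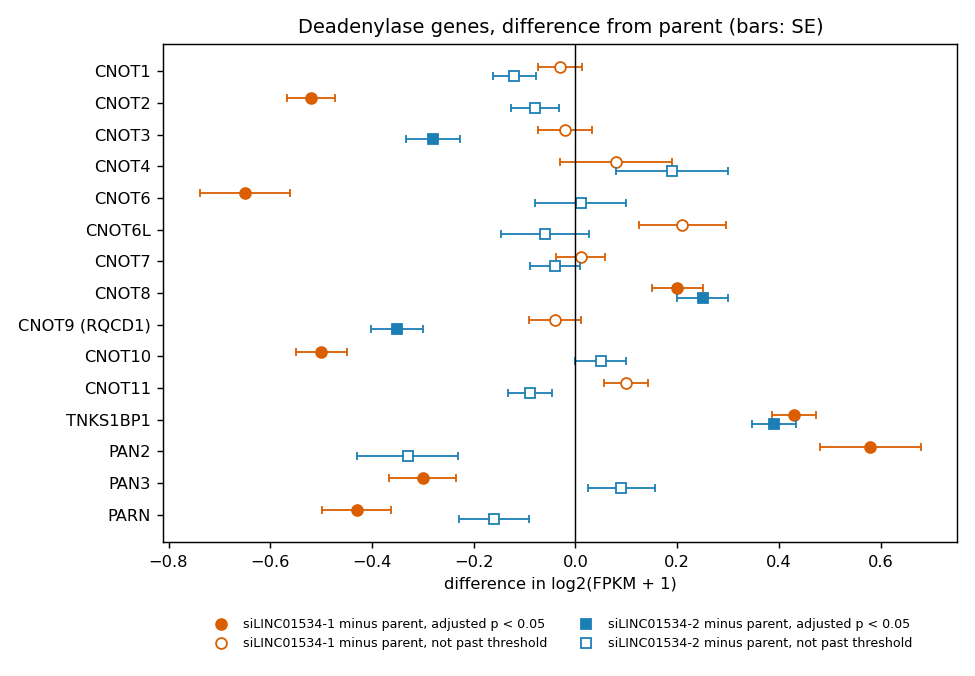
Difference from parent in log2(FPKM + 1) for the 15 deadenylase genes, with circles for siLINC01534-1, squares for siLINC01534-2, filled symbols for a limma adjusted p under 0.05 and bars for the standard error. CNOT7 lies near 0 for both siRNAs, CNOT2, CNOT6 and CNOT10 lie low for siLINC01534-1 alone, and TNKS1BP1 lies at 0.43 and 0.39.

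Of 18 genes for poly(A)-binding proteins and RNA-binding proteins that recruit deadenylases, 14 were tested. Under siLINC01534-1, 5 rose and 5 fell, where 46.3% of all tested genes were past the threshold. Under siLINC01534-2, 3 rose and 2 fell, where 22.8% of all tested genes were past it. The median log2 difference of the list was 0.03 in each comparison. The 3 that rose with both are described first. ZFP36, which encodes tristetraprolin, a protein that brings CCR4-NOT to AU-rich mRNAs, was at 21.6 and 21.0 FPKM in the parent libraries, at 39.2 and 39.1 in those of siLINC01534-1, and at 46.3 and 49.5 in those of siLINC01534-2. It rose by 0.85 (SE 0.046, adjusted p = 1.6e-04) and 1.13 (SE 0.046, adjusted p = 2.6e-04). Its relative ZFP36L1 rose by 0.49 (adjusted p = 6.2e-04) and 0.59 (adjusted p = 0.0015), and PABPC1L, a poly(A)-binding protein gene, by 0.76 (adjusted p = 5.9e-04) and 0.54 (adjusted p = 0.0055). The poly(A)-binding protein genes PABPC1 and PABPC4 fell with siLINC01534-2, by 0.18 (adjusted p = 0.026) and 0.22 (adjusted p = 0.019), and both calls were lost without any of the 4 libraries compared (-0.19 to -0.17 and -0.24 to -0.20). The genes called under siLINC01534-1 further held TNRC6A (0.22) and TNRC6C (0.25), scaffolds of miRNA silencing, which rose, and CPEB4 (-0.42), PUM2 (-0.26), ZFP36L2 (-0.36) and TNRC6B (-0.35), which fell (adjusted p from 0.0050 to 0.023). Without 1 library the call of TNRC6C (0.23 to 0.28) was lost in all 4 cases. Those of TNRC6A (0.17 to 0.23) and ZFP36L2 (-0.41 to -0.30) were lost without either parent library or siLINC01534-1 replicate 1, and that of CPEB4 (-0.38 to -0.34) without parent replicate 1 or siLINC01534-1 replicate 1.

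Among 11 partner and regulator genes of the family, which included PRMT1, SKP2, CHEK1 and E2F1, 1 rose and 1 fell with each siRNA. Of all tested genes, 46.3% were past the threshold with siLINC01534-1 and 22.8% with siLINC01534-2. HOXB9, a transcription factor known as a BTG2 partner, rose with both, by 0.30 (adjusted p = 0.0062) and 0.28 (adjusted p = 0.018). CHEK1, the gene of the BTG3 partner CHK1, fell with siLINC01534-1 by 0.48 (adjusted p = 0.0032). SKP2, whose product is known to target TOB1 for degradation, fell with siLINC01534-2 by 0.40 (adjusted p = 0.024), a call lost without any of the 4 libraries compared (-0.46 to -0.33). The call of HOXB9 with siLINC01534-2 was lost without any of the 4 libraries compared (0.24 to 0.31).

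The G1/S genes, on which forced BTG and TOB expression is known to act, were mixed in direction. Of 16 listed, 15 were tested. Under siLINC01534-1, 4 rose and 6 fell (median -0.17), while 3 rose and 6 fell under siLINC01534-2 (median -0.15). The share of all tested genes past the threshold was 46.3% with siLINC01534-1 and 22.8% with siLINC01534-2. CDK6, a cyclin D-dependent kinase, fell from 15.4 and 14.9 FPKM in parent to 8.91 and 8.97 (adjusted p = 3.2e-04) and to 11.2 and 10.9 (adjusted p = 0.0050). CCNE2, which encodes cyclin E2, fell by 0.94 (SE 0.078, adjusted p = 5.5e-04) and 0.48 (SE 0.078, adjusted p = 0.013). CDK2 fell by 0.17 and 0.15 (adjusted p = 0.012 and 0.040). CCND1, the cyclin D1 gene known to be repressed by TOB and BTG proteins, rose by 0.17 (adjusted p = 0.023) and 0.24 (adjusted p = 0.016), and the inhibitor gene CDKN1B rose by 0.20 with each (adjusted p = 0.024 and 0.043). RBL2, which encodes the pocket protein p130, rose with siLINC01534-1 alone (0.27, adjusted p = 0.046), and this call was lost without any of the 4 libraries compared (0.26 to 0.28). Leaving out a library of the comparison ended the calls of CDKN1B, CDK2 and CCND1 with siLINC01534-2 in every case (log2 differences 0.15 to 0.25, -0.16 to -0.14 and 0.22 to 0.25), and that of CCNE2 without parent replicate 2 or either siLINC01534-2 library (-0.52 to -0.40). With siLINC01534-1, leaving out 1 library of the comparison ended the call of CDKN1B in all 4 cases (0.18 to 0.22). It also ended those of CCND1 (0.12 to 0.18) and CDK2 (-0.18 to -0.15) without either parent library and 1 siLINC01534-1 library, which was replicate 2 for CCND1 and replicate 1 for CDK2.

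BTG2 was described beside 6 other genes, listed as p53 targets, that are known to be induced by DNA damage. All 6 rose with siLINC01534-1 (median 0.71), 5 rose with siLINC01534-2 (median 0.37), and none fell. For comparison, 21.8% of all tested genes were past the threshold on the higher side with siLINC01534-1 and 11.1% with siLINC01534-2. CDKN1A, which encodes the inhibitor p21 and also belongs to the G1/S list, was at 132 and 135 FPKM in the parent libraries, at 259 and 256 in those of siLINC01534-1, and at 169 and 178 in those of siLINC01534-2, a log2 difference of 0.95 (SE 0.038, adjusted p = 7.8e-05) and 0.38 (SE 0.038, adjusted p = 0.0035). The siLINC01534-1 libraries were the highest, which was also the order of BTG2. TP53INP1 rose by 0.95 and 0.40 (adjusted p = 3.1e-04 and 0.013), FAS by 0.79 and 0.46 (adjusted p = 4.1e-04 and 0.0070), ZMAT3 by 0.64 and 0.35 (adjusted p = 0.0017 and 0.026) and MDM2 by 0.51 and 0.34 (adjusted p = 9.6e-04 and 0.0097). SESN1, the gene not called with siLINC01534-2 (0.22, adjusted p = 0.059), rose by 0.34 with siLINC01534-1 (adjusted p = 0.0083), a call lost without parent replicate 2 or siLINC01534-1 replicate 2 (0.32 to 0.34). With siLINC01534-2 the calls depended on single libraries. Those of TP53INP1 (0.35 to 0.44) and FAS (0.44 to 0.48) were lost without either parent library or siLINC01534-2 replicate 2, that of ZMAT3 without any of the 4 libraries compared (0.31 to 0.40), and that of MDM2 without siLINC01534-2 replicate 2 (0.31).

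Genes with a profile like that of BTG3 were ranked by the root mean square difference between centred log2(FPKM + 1) profiles over the 6 libraries, among 12202 genes. The nearest was MRPS6, a mitochondrial ribosomal protein gene, with a difference of 0.176 and Pearson's r = 0.998. LINC00326, a long noncoding RNA (0.205), STMN1, which encodes the microtubule regulator stathmin (0.219), MYL2, a myosin light chain gene (0.220), and LPAR3, a lysophosphatidic acid receptor gene (0.229), followed. These likenesses rest on 6 points in 3 clusters and are a description. MRPS6 was at 44.1 and 44.7 FPKM in the parent libraries, at 29.6 and 28.7 in those of siLINC01534-1, and at 19.7 and 18.7 in those of siLINC01534-2. STMN1 was at 208 and 205, at 137 and 149, and at 99.4 and 93.7 FPKM in the same groups. In both genes the groups kept the order seen in BTG3, with a smaller span, as their ratio to parent with siLINC01534-2 was 0.433 and 0.467 against 0.317 for BTG3. LINC00326 and MYL2 were low, at no more than 4.32 FPKM in any library. Their ratios to parent with siLINC01534-2 were 0.285 and 0.243, below that of BTG3, while that of LPAR3 was 0.439. The pseudocount of 1 narrows the span of such low genes on the log2(FPKM + 1) scale.

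**Figure D5:**
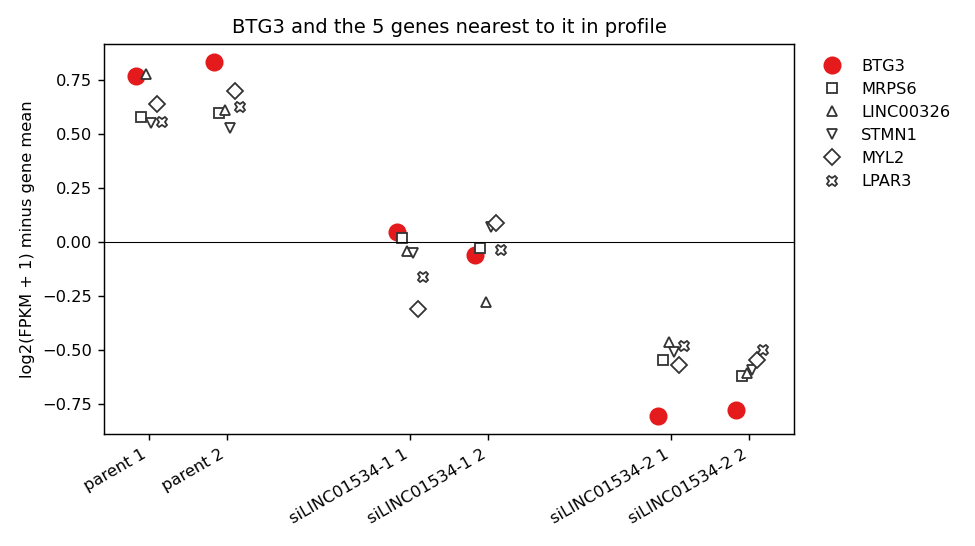
Centred log2(FPKM + 1) of BTG3 (filled circles) and of the 5 genes nearest to it (open symbols) in each of the 6 libraries, where 0 is the mean of a gene over the libraries. All 6 genes are highest in parent and lowest with siLINC01534-2, and BTG3 has the widest span on this scale, though not by ratio of FPKM.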

How the data were processed

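HCT116 libraries (2 each of parent, siLINC01534-1 and siLINC01534-2) were grouped by the labels. Poly(A) libraries were made with a stranded kit and sequenced single-end, and the authors mapped them to hg19 (TopHat 2.0.13, Bowtie2 2.2.3, SAMtools 0.1.19) and deposited FPKM from Cuffnorm (Cufflinks 2.2.1). The annotation and library scaling are not given in the sources used here. No counts were used here, so precision rests on the estimated depth and on n = 2. The methods mention triplicate cultures and the labels 2 replicates, so p-values measure the spread between these libraries, which may be technical.

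The 12203 genes whose mean FPKM reached 1 were tested as log2(FPKM + 1) with limma 3.58.1 in R 4.3.3 (trend, Benjamini-Hochberg, two-sided, threshold 0.05) over all 6 libraries without a replicate block. The script was tested on simulated data with known changes. Standard errors come from this fit. Alternatives were another pseudocount, filters, scalings, variance model, block and left-out libraries. Depth used whole steps of low values (tolerance 0.05) in 278 genes with 1 annotated transcript. The members and lists were chosen with earlier results of these data known. Named were the members, BTG4, deadenylases past the threshold in a comparison with parent, up to 6 genes of each other list past it in the same direction with both siRNAs, and the 5 genes nearest BTG3. Genes completing a list count of 5 or fewer, SESN1, CNOT1 and CNOT7 were named after their values were seen, and some of these genes are not reported here. CDKN1A and E2F1 each belong to 2 lists. Python 3.11.15 (pandas 2.3.3, numpy 2.4.6, matplotlib 3.10.9) was used for sequences and figures.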

Additional observations from a re-analysis of the deposited data

Results flagged for a closer look

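TOB1 lay on opposite sides of parent with the siRNAs. Both siLINC01534-1 libraries lay below both parent libraries and both siLINC01534-2 libraries lay above them, with a log2 difference between the siRNAs of -1.93. The difference from parent under siLINC01534-2 was small (0.22, SE 0.065). No p-value is given for the difference between the siRNAs, and nothing is read from its call, since TOB1 is a member chosen with these values known.

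For other named genes the difference between the siRNAs (siLINC01534-1 minus siLINC01534-2) was past the threshold in limma. Of all tested genes 41.8% were past it in this comparison, so such calls were common. Among the deadenylase genes it was -0.44 for CNOT2, 0.26 for CNOT3, -0.67 for CNOT6, 0.31 for CNOT9 (RQCD1), -0.55 for CNOT10, 0.91 for PAN2, -0.39 for PAN3 and -0.27 for PARN (adjusted p from 9.7e-04 to 0.026). CNOT11, a deadenylase gene not named above, was past it too, at 0.19 (limma adjusted p = 0.018). Among genes of poly(A)-binding and recruiting proteins it was -0.28 for ZFP36, 0.22 for PABPC1L, 0.34 for both TNRC6A and TNRC6C, -0.68 for CPEB4, -0.17 for PUM2, -0.55 for ZFP36L2, -0.29 for TNRC6B, 0.13 for PABPC1 and 0.33 for PABPC4. It was -0.53 for CHEK1 and 0.33 for SKP2. Among the G1/S and DNA damage-induced genes it was -0.46 for CCNE2, -0.28 for CDK6, 0.57 for CDKN1A, 0.54 for TP53INP1, 0.33 for FAS, 0.28 for ZMAT3, 0.17 for MDM2 and 0.31 for RBL2. Of the genes nearest BTG3 it was 0.58 for MRPS6, 0.56 for STMN1 and 0.39 for LPAR3. These 3 genes were chosen for a profile like that of BTG3, which itself differed between the siRNAs by 0.79. Nothing is therefore read from their calls. Leaving out single libraries ended the calls of CNOT3 (log2 difference 0.22 to 0.28 without either siLINC01534-1 library or siLINC01534-2 replicate 2), PARN (-0.29 to -0.20 without either siLINC01534-1 library or siLINC01534-2 replicate 1), PABPC1L (0.17 to 0.26) and MDM2 (0.14 to 0.20), both without any of the 4 siLINC01534 libraries, and ZMAT3 (0.23 to 0.34 without any library). The call of PUM2 (-0.19 to -0.14) was lost without any siLINC01534 library, that of TNRC6B (-0.30 to -0.26) without either siLINC01534-1 library or siLINC01534-2 replicate 2, and that of SKP2 (0.23 to 0.35) without either siLINC01534-2 library or siLINC01534-1 replicate 2. That of PABPC1 (0.09 to 0.14) was lost without any library but siLINC01534-1 replicate 1, that of RBL2 (0.20 to 0.31) without any library but siLINC01534-2 replicate 2, and that of TNRC6C (0.32) without siLINC01534-1 replicate 2. All groups hold 2 libraries, so no library could be compared with the others of its group as an outlier.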

How the results depend on the processing

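Every difference of a member kept its direction under each alternative, except that of TOB2 with siLINC01534-2 (-0.01 to 0.05 with a library left out). A pseudocount of 0.1 gave log2 differences of 1.71 and 1.83 for BTG1 with siLINC01534-1 and siLINC01534-2, 1.05 for BTG2 and -1.79 for TOB1 with siLINC01534-1, -1.65 for BTG3 with siLINC01534-2 and -2.02 for TOB1 between the siRNAs. The ratio of arithmetic means, on the log2 scale, gave 1.74, 1.86, 1.06, -1.80, -1.66 and -2.03 for the same. BTG3 minus its relatives was then -1.10, -2.28 and 1.18 (pseudocount 0.1) and -1.11, -2.30 and 1.19 (arithmetic means) for siLINC01534-1 and siLINC01534-2 against parent and between the siRNAs. Quantile normalization gave -0.75 for BTG3 and 0.15 for TOB2 with siLINC01534-1, and 0.64 for BTG2 and 0.13 for TOB2 between the siRNAs.

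With 1 library left out in turn, siLINC01534-1 against parent gave 1.40 to 1.54 for BTG1, -0.86 to -0.75 for BTG3 and -1.78 to -1.63 for TOB1. siLINC01534-2 against parent gave 1.5 to 1.65 for BTG1 and 0.39 to 0.47 for BTG2. Between the siRNAs the values were 0.55 to 0.63 for BTG2, 0.73 to 0.84 for BTG3 and -2.0 to -1.85 for TOB1. Such fits assume that a lone library varies like those of the other groups. The genes called then numbered 3907 to 5241 of 5654 (siLINC01534-1), 857 to 1931 of 2788 (siLINC01534-2) and 3196 to 4515 of 5096 (between the siRNAs). For siLINC01534-2 the numbers were 904 and 857 without parent replicates 1 and 2 and 1195 and 889 without siLINC01534-2 replicates 1 and 2. Calls in the deadenylase list were 1 to 3 with siLINC01534-2. Those in the poly(A)-binding and recruiting list were 5 to 10, 3 to 6 and 6 to 10 in the same 3 comparisons, those among partners 0 to 2 with siLINC01534-2 and 1 to 3 between the siRNAs, those in the G1/S list 5 to 13 and 2 to 5 against parent, and those among DNA damage-induced genes 1 to 5 with siLINC01534-2 and 3 to 4 between the siRNAs. Other list counts changed by more than 1.5 times in 4 cases, namely 3 for poly(A) genes with siLINC01534-2 (quantile normalization), 5 for G1/S genes with siLINC01534-2 (fit on the 4 libraries compared), and 3 for DNA damage-induced genes between the siRNAs without a filter on low values and also with the replicate block.

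Same-numbered libraries had deviations from their group means correlated by 0.11, 0.027 and -0.046, so the numbers were not taken to pair the libraries. A block for the replicate number left 5114, 1993 and 4438 genes called in the 3 comparisons, and the members' differences were the same. The block ended 10 of the calls given for other named genes (PABPC1L, PUM2 and MDM2 between the siRNAs, CDKN1B and CDK2 with siLINC01534-2, RBL2 with siLINC01534-1, and ZMAT3 and PABPC1 each with siLINC01534-2 and between the siRNAs). Of the 5 genes nearest BTG3, 3 remained with a minimum mean FPKM of 5. Low genes are limited by depth, as LINC01534 shows.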
